A study of Mus musculus with 9 samples.

Results

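Aminoacyl-tRNA synthetases and genes of the amino acid stress response were examined as a group of 46 genes: 20 cytosolic synthetases, 16 mitochondrial synthetases and 10 stress-response genes. The members were chosen by name, as every probe whose gene name on the array was a listed gene or its newer alias, which gave 86 of 41174 probes. Of these, 85 were kept, and all 46 genes were among the 12054 genes tested. The probe that stood for each gene was well above background on all 9 arrays, and none was saturated.

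RNA came from A-MuLV (Abelson virus) transformed pro-B cells of C57Bl/6 background, genotype Ebf1fl/fl;RERTCre, in which 4-hydroxy-tamoxifen activates the Cre that deletes Ebf1, a transcription factor of the B lineage. All 3 groups were given 2 µM of the drug, although for EBF1wt replicate 3 it is named in the description alone and not in the source field. EBF1ΔC cells carried the vector pmys-EBF1ΔC-IRES-GFP, which encodes EBF1 without its C-terminal domain, and EBF1wt cells carried pmys-EBF1wt-IRES-GFP. Both received the drug 24 h after transduction, were sorted for GFP 5 days later and were analysed after more than 2 further weeks. Mock cells carried neither construct and were harvested 4 days after the drug, while no cell death was yet seen. Each group had 3 arrays read in 1 colour. Neither the number of transformed lines nor the independence of the replicate cultures is given by the labels, so p-values may measure only technical spread.

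Each synthetase joins one amino acid to its tRNA, and separate nuclear genes encode most of the enzymes of the cytosol and of the mitochondrion. When amino acids run short or the endoplasmic reticulum is stressed, kinases phosphorylate the initiation factor eIF2, and the transcription factor ATF4 is then translated more efficiently. ATF4 binds C/EBP-ATF response elements and raises genes for amino acid transport, amino acid synthesis and tRNA charging, together with its partners and feedback regulators such as Ddit3 (CHOP), Trib3 and Chac1.

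Values are log2 signals, meaning the log2 intensity of a probe relative to the 75th percentile of its array, so 0 is that percentile. A difference passed the test at a limma adjusted p under 0.05, and was called when it also reached 2-fold. The 75th percentile lay between 384 and 508 intensity units. The 3 arrays per group limit the precision. Mock arrays were scanned on a separate day and on slides with no other group, so in every comparison with Mock the EBF1 construct, time after the drug, transduction, sorting, scan day and slide cannot be told apart. All 10 pro-B markers were well above background in every group. Their summed signal, in multiples of the 75th percentile, was 740 to 800.4 in EBF1ΔC, 773 to 842 in EBF1wt and 186 to 193 in Mock. Markers of other cells also differed between the groups, in part between EBF1ΔC and EBF1wt. The summed signal of 8 erythroid genes was 2.44 to 5.37 in EBF1ΔC and 3.32 to 5.49 in EBF1wt, against 345 to 406 in Mock. The 10 myeloid genes gave 8.04 to 15.6 in EBF1ΔC, 0.651 to 2.88 in EBF1wt and 9.24 to 10.1 in Mock, and 6 plasma cell genes gave 3.49 to 3.83 in EBF1ΔC, 6.01 to 8.67 in EBF1wt and 11.3 to 11.5 in Mock. The sums were 9.79 to 11.5 in EBF1ΔC, 2.79 to 5.58 in EBF1wt and 5.45 to 6.41 in Mock for 12 T and NK cell genes. For 8 stromal genes they were at most 0.486 on any array. A sum follows its brightest genes and can hide opposite movements. Of 4 myeloid genes tested, 3 passed lower than Mock and 1 higher in each EBF1 group. Their log2 differences ran from -6.91 to 5.16 in EBF1ΔC and from -6.89 to 2.06 in EBF1wt. All 3 erythroid genes tested passed lower in both groups. Of 4 plasma cell genes tested, 1 passed higher and 2 lower in EBF1ΔC, and 2 and 1 in EBF1wt. Of 5 T and NK genes tested, 2 passed higher and 2 lower in EBF1ΔC, and 0 and 2 in EBF1wt. Of 2 stromal genes, 1 passed higher in EBF1ΔC and 1 lower in EBF1wt. Between EBF1ΔC and EBF1wt, 3 T and NK, 1 myeloid, 1 erythroid and 1 stromal gene passed higher in EBF1ΔC. There 1 myeloid and 3 plasma cell genes passed lower, where 4.08% of all genes passed higher and 4.94% lower. In EBF1ΔC, EBF1wt and Mock, the numbers of genes not well above background on any array were 4, 6 and 4 of 8 (erythroid), 6, 7 and 3 of 10 (myeloid), 2, 2 and 2 of 6 (plasma cell), 8, 9 and 5 of 12 (T and NK) and 4, 6 and 7 of 8 (stromal). The part of these markers in the differences from Mock, or in those between EBF1ΔC and EBF1wt, was not tested. In bulk RNA, fewer cells of a type and less RNA per cell cannot be told apart.

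The stress-response genes were higher in EBF1ΔC and in EBF1wt than in Mock. All 10 passed the test in EBF1ΔC and all 10 in EBF1wt, with a median log2 difference of 0.88 and 0.96, against 0.10 and 0.12 over all genes tested. On every one of the 10 genes the lowest array of each EBF1 group lay above the highest Mock array. Genes higher than Mock without overlap made up 41.4% of all genes in EBF1ΔC and 42.8% in EBF1wt. Among all genes, 37.4% passed higher than Mock in EBF1ΔC and 39.4% in EBF1wt. Of the 10 genes, 4 were called higher in EBF1ΔC (background 6.25% of all genes) and 5 in EBF1wt (background 6.6%). None of the 46 genes was called lower than Mock, which 11.9% of all genes were in EBF1ΔC and 12.9% in EBF1wt.

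Trib3, a pseudokinase that is induced by ATF4 and CHOP and restrains them, had the largest difference of the 46 genes. Its log2 signal was 3.58, 3.22 and 3.44 on the EBF1ΔC arrays, 3.67, 3.85 and 3.72 on the EBF1wt arrays, and 0.43, 0.44 and 0.42 on the Mock arrays. The Mock arrays lay close together and far below both EBF1 groups. EBF1ΔC was 7.91-fold above Mock (log2 2.98 ± 0.10 SE, adjusted p = 2.6e-07, limma) and EBF1wt 9.96-fold (log2 3.32 ± 0.10, adjusted p = 1.06e-07). A second Trib3 probe, at another position of the same mRNA, gave 3.07 in EBF1ΔC and 3.27 in EBF1wt.

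Atf4 itself had log2 signals of 4.03, 4.02 and 3.89 in EBF1ΔC, 3.93, 4.33 and 4.08 in EBF1wt and 3.13, 3.10 and 3.11 in Mock. Both EBF1 groups were above Mock on every array and overlapped each other. The difference was 0.86 ± 0.10 (SE) in EBF1ΔC (adjusted p = 0.000172, limma) and 1.00 ± 0.10 in EBF1wt (adjusted p = 7.21e-05), which is at the 2-fold limit. Without EBF1wt replicate 2 the EBF1wt difference was 0.89, and without Mock replicate 2 or 3 it also fell just short. Since ATF4 is controlled largely by translation, its transcript does not measure the protein.

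Ddit3, the CHOP transcription factor, gave 0.46, 0.27 and 0.34 in EBF1ΔC, 0.13, -0.23 and 0.13 in EBF1wt and -0.79, -0.82 and -0.63 in Mock. The 3 groups did not overlap, and EBF1ΔC was the highest. The difference from Mock was 1.11 ± 0.12 in EBF1ΔC (adjusted p = 8.02e-05, limma) and 0.76 ± 0.12 in EBF1wt (adjusted p = 0.000567). EBF1ΔC minus EBF1wt was 0.35 ± 0.12 and did not pass (adjusted p = 0.104). Its probe and that of Mars, the methionine enzyme, lie next to each other on chromosome 10 (mm9: Ddit3 126732518 to 126732821, Mars 126733940 to 126733999).

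Chac1, which degrades glutathione, was the most variable of the 10 in EBF1wt. It had 2.42, 2.52 and 2.13 in EBF1ΔC, 2.21, 2.70 and 1.98 in EBF1wt and 1.79, 1.51 and 1.79 in Mock. The gap between the EBF1 groups and Mock was narrow, and the differences of 0.66 ± 0.19 in EBF1ΔC (adjusted p = 0.0141, limma) and 0.60 ± 0.19 in EBF1wt (adjusted p = 0.0208) were among the smallest of the class. Without Mock replicate 2, Chac1 did not pass in EBF1ΔC (adjusted p = 0.0529, limma) or in EBF1wt (adjusted p = 0.0737). It also missed in EBF1ΔC without EBF1ΔC replicate 2 (adjusted p = 0.0508) and in EBF1wt with quantile normalization (adjusted p = 0.0604).

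Asns, which makes asparagine from aspartate and glutamine, gave 6.81, 6.84 and 6.63 in EBF1ΔC, 6.68, 6.92 and 6.59 in EBF1wt, and 5.65 and 5.68 on 2 Mock arrays. The spot on Mock replicate 3 was marked as an outlier by the scanner software and left out. Asns was 2.13-fold above Mock in EBF1ΔC (log2 1.09 ± 0.12, adjusted p = 0.000172, limma) and 2.09-fold in EBF1wt (log2 1.06 ± 0.12, adjusted p = 0.000183), where the log2 difference was 0.97 without EBF1wt replicate 2.

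The enzymes of serine synthesis and of the mitochondrial one-carbon pathway, which takes its carbon from serine, moved the same way. Psph, the last enzyme of serine synthesis, had 4.08, 4.13 and 4.05 in EBF1ΔC, 4.06, 4.36 and 3.95 in EBF1wt and 2.90, 2.85 and 2.80 in Mock. Its difference of 1.24 ± 0.11 in EBF1ΔC (adjusted p = 3e-05, limma) and 1.27 ± 0.11 in EBF1wt (adjusted p = 2.33e-05) was called under each of the 22 settings tried. Shmt2, which splits serine to glycine in mitochondria, had 5.69, 5.48 and 5.24 in EBF1ΔC, 5.51, 5.74 and 5.64 in EBF1wt and 4.69, 4.46 and 4.57 in Mock. The difference of Shmt2 was 0.90 in EBF1ΔC and 1.06 in EBF1wt, so that only EBF1wt reached 2-fold, and just missed it without Mock replicate 2. Phgdh, the first enzyme of serine synthesis, was 0.86 and 0.92 above Mock in EBF1ΔC and EBF1wt, Mthfd2 (mitochondrial one-carbon) 0.85 and 0.90, and Psat1, between Phgdh and Psph, 0.47 and 0.62. All 3 passed in both groups and stayed under 2-fold. Phgdh had 2 further probes, which gave 1.00 and 1.16 in EBF1ΔC and 1.06 and 1.30 in EBF1wt.

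**Figure D1:**
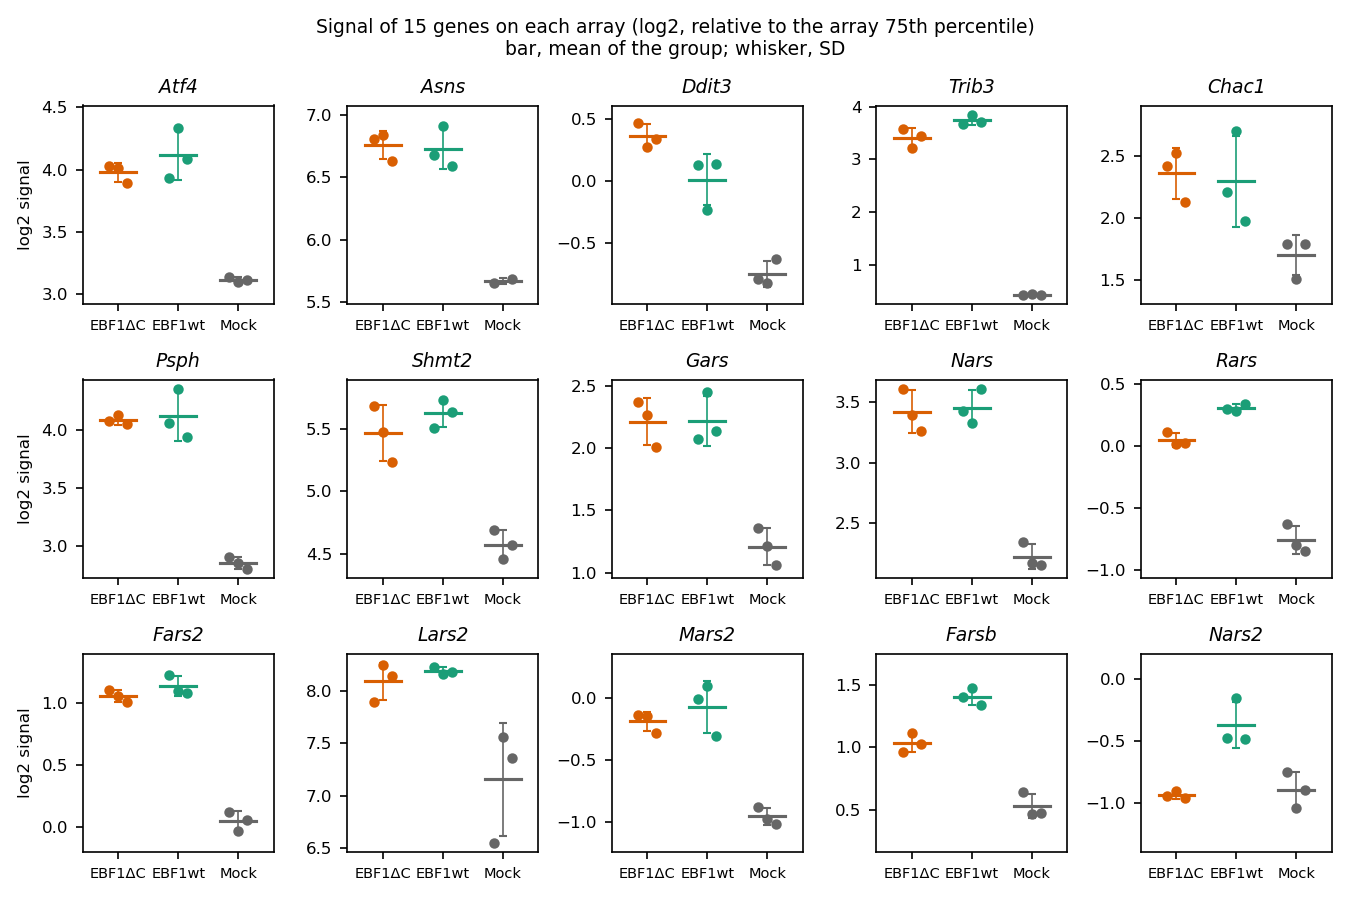
Log2 signal relative to the array 75th percentile (vertical axis, a separate range for each gene) of 15 genes on the EBF1ΔC, EBF1wt and Mock arrays. Points are arrays, bars group means and whiskers SD over 3 arrays (2 for Asns in Mock); Trib3 has the widest gap to Mock, Lars2 has 1 Mock array at 6.54 below the other Mock arrays, and for Farsb and Nars2 the EBF1ΔC arrays lie below the EBF1wt arrays.

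Most cytosolic synthetases were higher than Mock, with smaller median differences than the stress-response genes. In EBF1ΔC 14 of 20 passed higher and in EBF1wt 16 of 20, none passed lower, and the median difference was 0.48 and 0.71. Of the 20 genes, 2 were called higher in EBF1ΔC (background 6.25% of all genes) and 3 in EBF1wt (background 6.6%). These counts depended on the scaling: after normexp correction and quantile normalization 10 passed higher and 2 lower in EBF1ΔC and 15 and 1 in EBF1wt, with medians of 0.32 and 0.42. With each array scaled to its median, 19 passed higher in EBF1ΔC and 20 in EBF1wt, with medians of 1.03 and 1.42. The medians over all genes were then 0.65 and 0.82, and the share of all genes passing higher was not counted. The lowest array lay above all Mock arrays for 16 of the genes in EBF1ΔC and 17 in EBF1wt, against 41.4% and 42.8% of all genes.

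Nars, which charges asparagine tRNA and so uses the product of Asns, led the class. Its signal was 3.61, 3.39 and 3.26 in EBF1ΔC, 3.43, 3.32 and 3.60 in EBF1wt and 2.35, 2.17 and 2.16 in Mock. Each Mock array lay below every array of the other groups. The difference was 1.19 ± 0.12 in EBF1ΔC (adjusted p = 5.26e-05, limma) and 1.22 ± 0.12 in EBF1wt (adjusted p = 4.34e-05).

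Gars, whose gene serves both compartments, had 2.37, 2.27 and 2.01 in EBF1ΔC, 2.08, 2.45 and 2.14 in EBF1wt and 1.36, 1.21 and 1.06 in Mock. The EBF1 groups overlapped each other and not Mock, with a difference of 1.01 ± 0.14 in each of them (adjusted p = 0.00033 in EBF1ΔC and 0.000302 in EBF1wt, limma). Leaving out 1 array took Gars under 2-fold: 0.93 in EBF1ΔC without EBF1ΔC replicate 1 or Mock replicate 3, 0.98 without EBF1ΔC replicate 2, and 0.90 in EBF1wt without EBF1wt replicate 2 or 0.94 without Mock replicate 3. Rars, the arginine enzyme, had 0.11, 0.01 and 0.02 in EBF1ΔC, 0.29, 0.28 and 0.34 in EBF1wt and -0.63, -0.80 and -0.84 in Mock. Rars separated all 3 groups. It was 0.81 ± 0.08 above Mock in EBF1ΔC (adjusted p = 5.06e-05, limma) and 1.06 ± 0.08 in EBF1wt (adjusted p = 1.11e-05), while EBF1ΔC minus EBF1wt was -0.26 and did not pass (adjusted p = 0.0801).

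The enzymes for methionine (Mars, 0.90 in EBF1ΔC and 0.96 in EBF1wt), threonine (Tars, 0.85 and 0.88) and tyrosine (Yars, 0.65 and 0.83) followed, as did Farsb, the beta subunit of the phenylalanine enzyme (0.51 and 0.88). Other members that passed in both groups were Iars (isoleucine, 0.52 in EBF1ΔC and 0.81 in EBF1wt), Dars (aspartate, 0.45 and 0.79), Eprs (glutamate and proline, 0.54 and 0.78), Sars (serine, 0.58 and 0.57), Hars (histidine, 0.27 and 0.49) and Cars (cysteine, 0.23 and 0.25). Kars (lysine, 0.28 in EBF1ΔC and 0.65 in EBF1wt), Lars (leucine, 0.28 and 0.46) and Farsa, the alpha subunit of the phenylalanine enzyme (0.01 and 0.34), passed in EBF1wt and not in EBF1ΔC. Aars (alanine) passed in EBF1ΔC (0.43) and not in EBF1wt (0.20), although its second mRNA probe passed in both (1.01 and 0.92). For Dars, by contrast, a second mRNA probe gave -0.16 in EBF1ΔC and 0.07 in EBF1wt and passed in neither, and another, dim one passed lower in both. Whether these effects differ between the EBF1 groups is what the direct comparison tests. None of Kars, Lars, Farsa and Aars passed there with the probe that stood for the gene. Averaged over its 5 kept probes, Aars passed higher in EBF1ΔC than in EBF1wt (0.51, adjusted p = 0.0339, limma).

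Qars (glutamine), Vars (valine) and Wars (tryptophan) passed in neither group. Their differences were 0.04, -0.18 and 0.02 in EBF1ΔC, and 0.11, 0.00 and 0.10 in EBF1wt. A second mRNA probe did pass higher for Qars (0.44 in EBF1ΔC, adjusted p = 0.00073, and 0.56 in EBF1wt, adjusted p = 0.000204, limma over all probes) and for Wars (0.36 in EBF1ΔC, adjusted p = 0.0104, and 0.49 in EBF1wt, adjusted p = 0.002). For the Qars probe that stood for the gene the sign depended on the scaling: it was -0.37 in EBF1ΔC and -0.29 in EBF1wt after normexp correction and quantile normalization, and passed lower. Split by assembly, the 8 enzymes of the multisynthetase complex (Eprs, Iars, Lars, Qars, Mars, Kars, Rars and Dars) had a median of 0.48 in EBF1ΔC and 0.79 in EBF1wt, and the 12 others of the cytosol 0.47 and 0.53.

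Mitochondrial synthetases were less uniform. In EBF1ΔC 7 of 16 passed higher than Mock and 1 lower, and in EBF1wt 12 passed higher and 1 lower. The median was 0.19 in EBF1ΔC and 0.49 in EBF1wt. With median scaling 15 passed higher in each group and 0 lower, while the medians over all genes rose to 0.65 and 0.82. The share that passed in EBF1ΔC, 7 of 16, stood near that of all genes.

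Fars2, the mitochondrial phenylalanine enzyme, had 1.10, 1.06 and 1.01 in EBF1ΔC, 1.23, 1.10 and 1.08 in EBF1wt and 0.13, -0.03 and 0.06 in Mock. The groups with EBF1 overlapped each other and lay well above Mock. The difference was 1.00 ± 0.08 in EBF1ΔC (adjusted p = 1.48e-05, limma) and 1.08 ± 0.08 in EBF1wt (adjusted p = 8.98e-06). In EBF1ΔC it was 0.98 without EBF1ΔC replicate 1 and 0.96 without Mock replicate 2.

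Lars2, the mitochondrial leucine enzyme, had 7.89, 8.24 and 8.14 in EBF1ΔC, 8.23, 8.16 and 8.18 in EBF1wt and 6.54, 7.56 and 7.36 in Mock. Mock replicate 1 was well below the other arrays of its group. Lars2 had only 1 probe, the brightest of the 85 kept, with a mean log2 signal of 7.81. The difference from Mock was 0.94 ± 0.23 in EBF1ΔC (adjusted p = 0.00749, limma) and 1.04 ± 0.23 in EBF1wt (adjusted p = 0.00431). Without Mock replicate 1 the EBF1wt difference was 0.73 and was no longer 2-fold.

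Mars2, the mitochondrial methionine enzyme, had -0.14, -0.15 and -0.28 in EBF1ΔC, -0.00, 0.10 and -0.30 in EBF1wt and -0.88, -0.97 and -1.01 in Mock. Both EBF1 groups lay above Mock, by 0.76 ± 0.11 in EBF1ΔC and 0.88 ± 0.11 in EBF1wt (adjusted p = 0.000433 and 0.000188, limma). Wars2 (tryptophan, 0.62 in EBF1ΔC and 0.48 in EBF1wt), Tars2 (threonine, 0.49 and 0.55), Rars2 (arginine, 0.38 and 0.56) and Pars2 (proline, 0.27 and 0.50) passed in both groups. Nars2 (asparagine), Yars2 (tyrosine), Iars2 (isoleucine), Sars2 (serine) and Hars2 (histidine) had differences of -0.04 to 0.21 in EBF1ΔC, which did not pass, and of 0.26 to 0.55 in EBF1wt, which did. Of these 5 genes, Nars2 alone passed in the direct comparison of EBF1ΔC with EBF1wt. The enzymes for alanine (Aars2), cysteine (Cars2) and glutamate (Ears2) passed in neither group. A second mRNA probe of Cars2, well above background on all 9 arrays, was lower than Mock, at -0.97 in EBF1ΔC (adjusted p = 0.000144, limma over all probes) and -0.95 in EBF1wt (adjusted p = 0.000158).

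Vars2, the mitochondrial valine enzyme, was the only member whose probe standing for the gene passed lower than Mock, and its arrays are given for that reason. Its signal was 2.00, 1.97 and 1.79 in EBF1ΔC, 2.09, 2.32 and 2.18 in EBF1wt and 2.59, 2.45 and 2.89 in Mock. Every Mock array was above all arrays of both EBF1 groups. The difference was -0.72 ± 0.12 in EBF1ΔC (adjusted p = 0.00115, limma) and -0.45 ± 0.12 in EBF1wt (adjusted p = 0.0124), and scaling to the median turned the EBF1wt value to 0.26. Genes that passed lower than Mock made up 26.8% of all genes in EBF1ΔC and 27.1% in EBF1wt, and genes lower without overlap 30.3% and 29.7%.

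**Figure D2:**
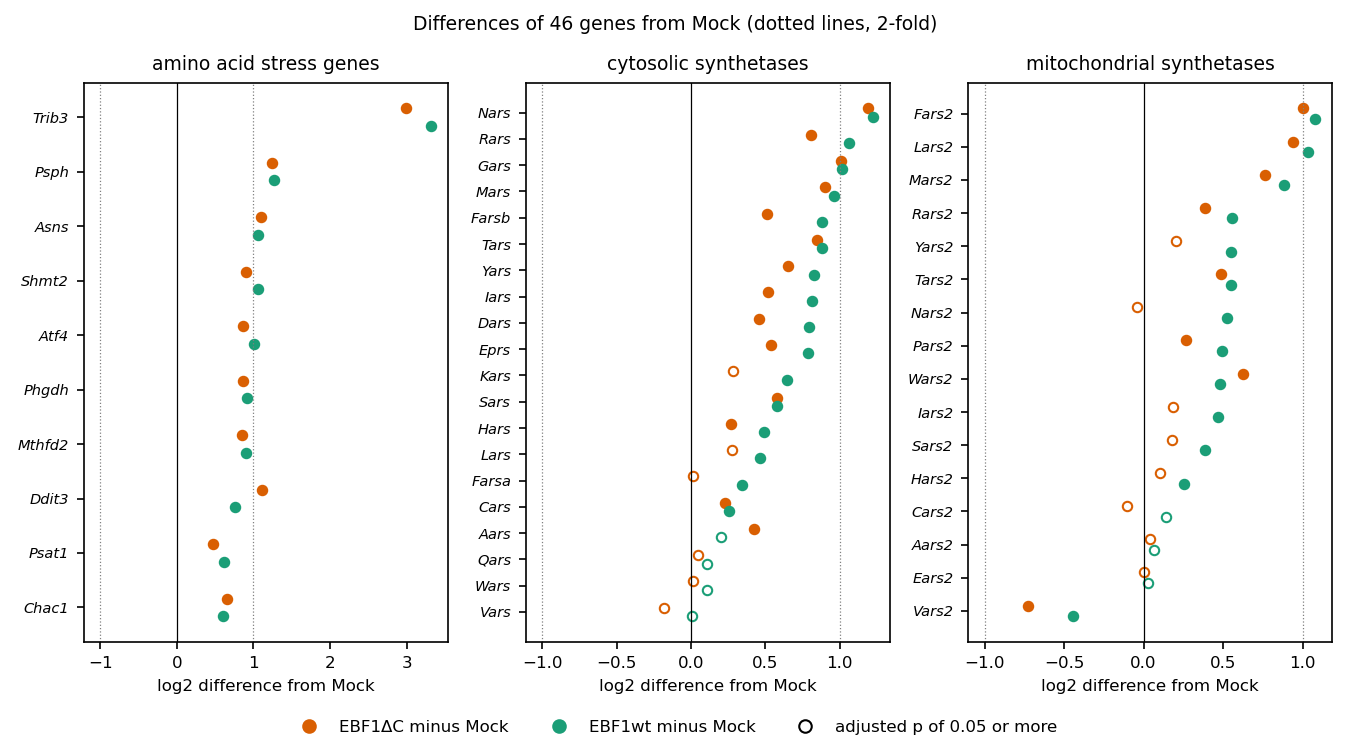
Log2 difference from Mock (horizontal axis) of the 46 genes in 3 panels, for EBF1ΔC (orange) and EBF1wt (green). Filled points passed at an adjusted p under 0.05 and dotted lines mark 2-fold; all 10 stress-response genes passed in both, Trib3 stands far to the right, and Vars2 is the only gene with a filled point to the left of 0.

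EBF1ΔC and EBF1wt differed little in these genes. Of the 46 genes, 0 were called higher (background 1.39% of all genes) and 0 lower (1.33%). By limma's adjusted p alone 0 passed higher and 2 lower (4.08% and 4.94% of all genes). At an unadjusted limma p under 0.05 the counts were 1 and 14. The share of all genes at that unadjusted threshold was not counted, so these counts have no background. The median difference, EBF1ΔC minus EBF1wt, was -0.14, against -0.01 over all genes. The difference was below 0 for 40 of 46 genes, and for 6180 of 12054 over all genes. By class the median was -0.05 for the stress-response genes, -0.18 for the cytosolic and -0.16 for the mitochondrial synthetases. All 8 genes of the multisynthetase complex were below 0, with a median of -0.25, against -0.06 for the 12 others.

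The 2 genes that passed were Nars2 and Farsb, whose values on each array are given because they passed. Nars2, the mitochondrial asparagine enzyme, had -0.94, -0.90 and -0.96 in EBF1ΔC, -0.47, -0.15 and -0.48 in EBF1wt and -0.75, -1.04 and -0.89 in Mock. EBF1wt was the high group, and EBF1ΔC overlapped Mock. EBF1ΔC minus EBF1wt was -0.57 ± 0.11 (adjusted p = 0.0192, limma), and it was -0.81 and -0.46 on the slides shared by both groups.

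Farsb had 0.97, 1.12 and 1.03 in EBF1ΔC, 1.41, 1.48 and 1.34 in EBF1wt and 0.64, 0.47 and 0.47 in Mock. EBF1ΔC lay between the other groups without overlap. The difference from EBF1wt was -0.37 ± 0.08 (adjusted p = 0.0282, limma), and -0.46 and -0.37 within the shared slides. With the slide as a block neither gene passed, nor with median scaling, normexp and quantile normalization, the authors' values, no filter or the replicate block. Neither passed without EBF1ΔC replicate 1 or without EBF1ΔC replicate 2. Only 1 of the 46 genes passed without EBF1ΔC replicate 3, without EBF1wt replicate 2 or without Mock replicate 3, and 3 passed without EBF1wt replicate 3 or without Mock replicate 1. The next smallest adjusted p-values were those of Iars (difference -0.30, adjusted p = 0.0593), Dars (-0.34, adjusted p = 0.0597), Rars (above) and Trib3 (-0.33, adjusted p = 0.0806), none of which passed. Without overlap between the groups were 1 stress-response gene higher (Ddit3) and 1 lower (Trib3), 8 cytosolic and 7 mitochondrial synthetases lower, where 13.4% of all genes were higher and 17.3% lower without overlap.

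The small shift was carried unevenly by the arrays. EBF1wt replicate 2 had the highest signal of its group for 31 of 46 genes, where it was highest for 38.6% of all genes. On the slide that held EBF1ΔC replicate 3 and EBF1wt replicate 2, the medians were -0.38 for the stress-response genes, -0.36 for cytosolic and -0.27 for mitochondrial synthetases. On the slide that held EBF1ΔC replicate 1 and EBF1wt replicate 3 they were 0.09, -0.05 and -0.07. Over all genes the medians were -0.02 and 0.00. Without EBF1wt replicate 2, 31 of 46 genes were below 0 and the median was -0.10. Without EBF1ΔC replicate 3 the same count was 31 and the median -0.10.

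**Figure D3:**
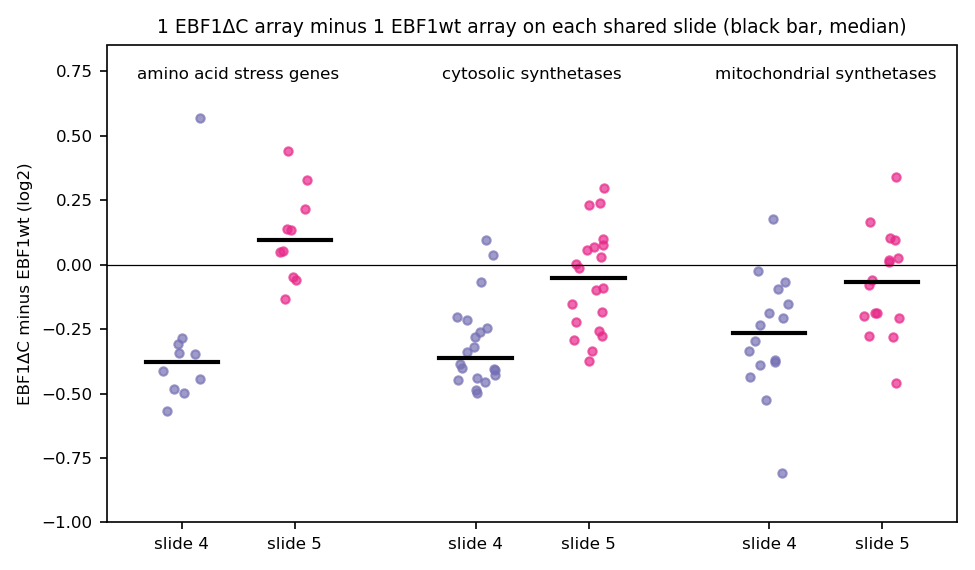
EBF1ΔC minus EBF1wt (log2, vertical axis) for 1 array of each group on slide 4 (purple) and slide 5 (pink), by class; each point is a gene and black bars are medians. The medians lie between -0.38 and -0.27 on slide 4 and between -0.07 and 0.09 on slide 5.

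The promoters of the members were searched for the element that ATF4 binds, since the stress-response genes rose together. The motif TGATGNAAN, the core of the C/EBP-ATF response element with any base at N, was searched on both strands from 250 bases before to 50 bases after the start of each gene (RefSeq, GRCm38.p6). It was present in 4.5% of 27025 promoters. Of 37 members with a promoter in the table, 8 held it: 3 of 10 stress-response genes (Asns, Chac1 and Trib3), 5 of 13 cytosolic synthetases (Aars, Gars, Iars, Tars and Yars) and 0 of 14 mitochondrial synthetases. Cars, Hars, Hars2, Lars, Nars, Pars2, Rars, Vars and Wars have no entry.

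Of the sites, 5 lay before the start. They are shown with their flanks, and they share letters because the search selected them by the motif. Each is written 5′ to 3′ on the strand of its gene, with the motif in capitals, or its reverse complement (ending in ATCA) where the motif is on the other strand.
Asns, chr6:7693210-7693257, minus strand: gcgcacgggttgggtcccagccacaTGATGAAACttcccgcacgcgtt
Chac1, chr2:119351023-119351081, plus strand: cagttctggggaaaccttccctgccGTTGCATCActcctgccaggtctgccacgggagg
Aars, chr8:111033704-111033762, plus strand: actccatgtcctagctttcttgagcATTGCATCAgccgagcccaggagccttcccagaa
Gars, chr6:55037945-55038000, plus strand: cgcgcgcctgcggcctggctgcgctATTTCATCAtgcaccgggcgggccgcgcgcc
Tars, chr15:11399659-11399699, minus strand: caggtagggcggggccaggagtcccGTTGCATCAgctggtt

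Counted from the start, with -1 the base before it, the site began at -23 in Asns, -194 in Chac1, -113 in Aars, -31 in Gars and -16 in Tars. Just after the start were TGATGTAAA in Trib3, TGATGCAAT in Iars, TGATGCAAC in Yars and a second site, TGATGAAAA, in Aars. The 8 genes with the motif had a median difference from Mock of 0.75 in EBF1ΔC and 0.85 in EBF1wt. All 8 passed higher in EBF1ΔC and 7 in EBF1wt, Aars being the exception. The 29 genes with a promoter and no motif had medians of 0.49 and 0.62, and 18 and 24 passed higher. The sets also differ in class. The 8 with the motif are stress-response genes and cytosolic synthetases, and the 29 include 14 mitochondrial synthetases, a class with lower medians (0.19 and 0.49 over its 16 genes). Psph and Ddit3 were among those without the motif in this window, and no test was made of the split.

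Probes of the same gene did not always agree. Among the 85 probes kept, 74 were designed on RefSeq mRNAs, and 50 of these were higher than Mock in EBF1ΔC and 59 in EBF1wt at an adjusted p under 0.05 over all probes. The other 11, on cDNA clones or other transcript records of 9 genes, were mostly lower: 6 passed lower in EBF1ΔC and 8 in EBF1wt, with medians of -0.63 and -1.01. The same split held on the whole array. Of 3325 named probes of the second kind, 50.9% passed lower than Mock in EBF1ΔC and 53.2% in EBF1wt, against 24.1% and 24.1% of 16723 probes on mRNAs. The 11 probes had mean log2 signals of -5.08 to -1.39, with a median of -3.59, against a median of 2.07 for the probes on mRNAs, so the kind of probe and its brightness moved together.

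Iars and Aars show the contrast, and their probes are printed here because the sign of the gene turns on them. Both have a pair of mRNA probes, and the one printed is not the brighter one that stood for the gene, which gave 0.52 in EBF1ΔC and 0.81 in EBF1wt for Iars and 0.43 and 0.20 for Aars. Each line is a 60-base probe with its position in mm9, where the printed mRNA probe of Iars covers 1310 bases and that of Aars 499, more than the length of a probe, and each clone probe covers 60. The exons and introns of that build were not used here.
Iars, second mRNA probe, chr13:49824084-49825393: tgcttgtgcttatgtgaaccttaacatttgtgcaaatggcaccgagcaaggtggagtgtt
Iars, clone probe, chr13:49817815-49817874: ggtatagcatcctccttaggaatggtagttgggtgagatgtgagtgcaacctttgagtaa
Aars, second mRNA probe, chr8:113573773-113574271: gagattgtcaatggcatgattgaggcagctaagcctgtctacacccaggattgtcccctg
Aars, clone probe, chr8:113561172-113561231: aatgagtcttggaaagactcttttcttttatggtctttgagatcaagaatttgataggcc

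The printed Iars mRNA probe was 0.82 above Mock in EBF1ΔC and 1.09 in EBF1wt (adjusted p = 6.08e-05 and 1.37e-05, limma over all probes). The clone probe gave -2.44 in EBF1ΔC and -2.27 in EBF1wt (adjusted p = 0.000778 and 0.00109), and was well above background on all 3 Mock arrays and on 1 array of each other group. For Aars the printed mRNA probe gave 1.01 in EBF1ΔC and 0.92 in EBF1wt. The Aars clone probe was well above background on all EBF1ΔC and Mock arrays and on no EBF1wt array, so that EBF1wt was at least 2.7-fold lower than Mock (adjusted p = 0.000296), and EBF1ΔC was -1.17 on the log2 scale (adjusted p = 0.00819). With all kept probes of a gene averaged, Aars, Dars, Iars and Yars2 were below Mock in both groups, Cars2 was in EBF1wt as well as in EBF1ΔC, and Farsa was in EBF1ΔC (-0.18, not passing). The second probe of Cars2 lies on an mRNA, not on a clone. What the clone probes detect was not tested.

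**Figure D4:**
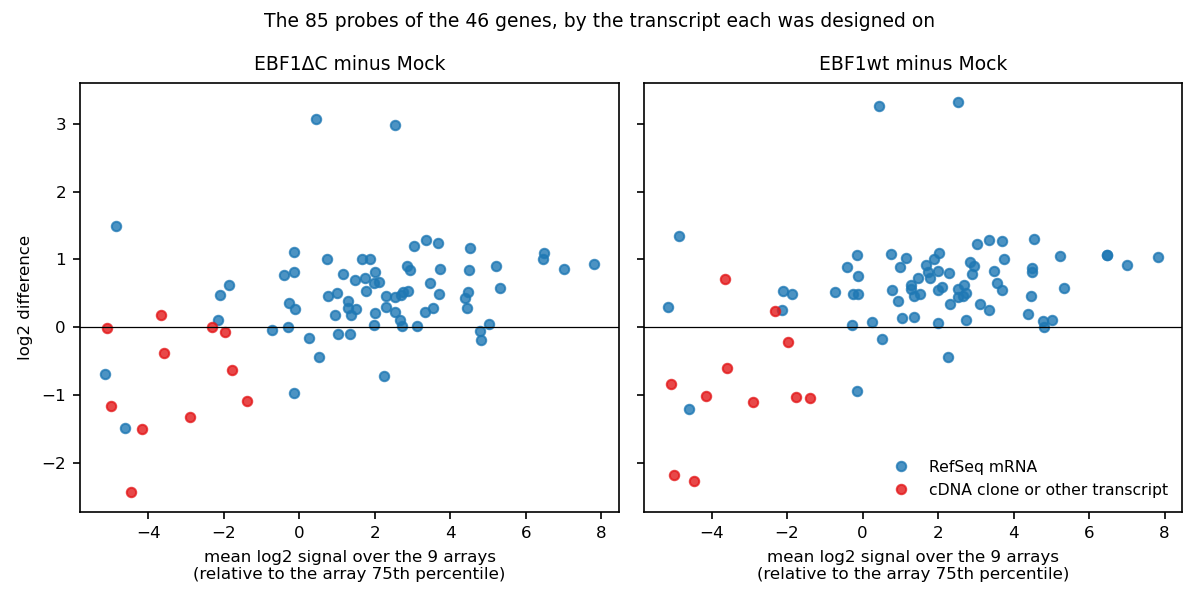
Log2 difference from Mock (vertical axis) against the mean log2 signal over the 9 arrays (horizontal axis) for the 85 probes kept, with EBF1ΔC on the left and EBF1wt on the right. Probes on RefSeq mRNAs (blue) lie mostly above 0, and the 11 on cDNA clones or other transcripts (red) lie mostly below 0 at low signal.

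The rest of the pathway was described from lists chosen with earlier results of these data known. Of 18 other ATF4-pathway genes 17 were tested: 14 passed higher than Mock in EBF1ΔC and 15 in EBF1wt, 0 and 1 lower, with medians of 0.83 and 0.96. Of all genes 37.4% and 39.4% passed higher, and 26.8% and 27.1% lower. Cth, which makes cysteine, was 2.99 above Mock in EBF1ΔC and 2.80 in EBF1wt, and Atf5, a paralogue of Atf4, 2.96 in EBF1ΔC and 2.73 in EBF1wt. Cebpb, a partner of ATF4, was 4.54 above Mock in EBF1ΔC and 3.57 in EBF1wt; in Mock it was well above background on 1 of 3 arrays. Atf3, a repressor of the same family, was 1.27 in EBF1ΔC and 0.58 in EBF1wt. Atf3 and Cebpb were also higher in EBF1ΔC than in EBF1wt, by 0.69 (adjusted p = 0.00528, limma) and 0.97 (adjusted p = 0.0496). These were the 2 of the 17 genes that passed higher there, and the count depended on the scaling. It was 0 with median scaling, 1 with quantile normalization alone, and 2 with normexp or the authors' values. The gene that passed lower was Vldlr, a lipoprotein receptor, at -1.40 in EBF1wt, where 1 of 3 arrays was well above background.

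Amino acid transporters rose with them. All 8 tested of 9 passed higher in both groups, with medians of 1.04 and 1.04. Of these, 4 were called in each, against 6.25% of all genes in EBF1ΔC and 6.6% in EBF1wt. Slc6a9, the glycine transporter, was 1.52 above Mock in EBF1ΔC and 1.64 in EBF1wt. Slc7a5 (1.45 and 1.49) and Slc3a2 (1.16 and 1.16), the chains of the large neutral amino acid exchanger, were called in both. Slc38a2, which imports small neutral amino acids, was called in EBF1ΔC (1.20), and Slc7a1, which imports arginine and lysine, in EBF1wt (1.10).

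Most chaperones and sensors of the endoplasmic reticulum were lower than Mock at the 75th percentile scaling. Of 15 genes, 13 passed lower than Mock in EBF1ΔC and 11 in EBF1wt, and 2 higher in each, with medians of -0.61 and -0.45. Ern1, the stress sensor IRE1, was -1.56 in EBF1ΔC and -1.51 in EBF1wt, and Atf6, another sensor, -1.04 in EBF1ΔC and -1.19 in EBF1wt. Herpud1, which acts in degradation of proteins from the reticulum and is also an ATF4 target, was 0.98 in EBF1ΔC and 1.02 in EBF1wt. Scaling to the median moves every difference from Mock up by 0.55 in EBF1ΔC and by 0.70 in EBF1wt, and that scaling ended most of these calls. It left 1 of the 15 passing lower in each group, and the median was -0.06 in EBF1ΔC and 0.25 in EBF1wt, where 10 of the 13 genes below 0 turned above it. With normexp and quantile normalization 13 passed lower in EBF1ΔC and 12 in EBF1wt.

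Of 13 genes for the eIF2 kinases, the phosphatase subunits and eIF2B, 5 passed higher and 1 lower in EBF1ΔC, and 6 and 0 in EBF1wt. The shares passing higher stood near those of all genes, 37.4% in EBF1ΔC and 39.4% in EBF1wt. Of all genes 26.8% and 27.1% passed lower. Ppp1r15b, which helps to dephosphorylate eIF2, was 0.73 in EBF1ΔC and 0.81 in EBF1wt. Eif2b3, a subunit of the exchange factor, was -1.06 in EBF1ΔC and -0.83 in EBF1wt, well above background on 1 EBF1ΔC, 2 EBF1wt and 3 Mock arrays, and passed in EBF1ΔC. The kinases Eif2ak1, Eif2ak2, Eif2ak3 and Eif2ak4 did not pass in either group. Of 10 synthetase partners and other charging enzymes, 4 passed higher and 1 lower in EBF1ΔC, and 5 and 0 in EBF1wt. Here too the shares passing higher stood near those of all genes. With median scaling the eIF2 genes passing higher were 10 in EBF1ΔC and 12 in EBF1wt, and the partner genes 6 and 10. That scaling moves the differences of all genes from Mock up, by 0.55 in EBF1ΔC and 0.70 in EBF1wt. Aimp2 and Aimp1, scaffolds of the multisynthetase complex, were 0.79 and 0.59 above Mock in EBF1ΔC and 1.09 and 0.58 in EBF1wt. Of 7 genes of the folate cycle outside the mitochondrial arm, 5 passed higher than Mock and 0 lower in EBF1ΔC (2 higher with normexp and quantile normalization), and 6 and 1 in EBF1wt. In the direct comparison 4 of them passed lower in EBF1ΔC than in EBF1wt, among them Atic (-0.56, adjusted p = 0.0213, limma) and Gart (-0.49, adjusted p = 0.0221), enzymes of purine synthesis. That count was 0 with median scaling. It was 3 with quantile normalization, with or without normexp, and 3 with the authors' values, where 1 passed higher. Tyms, which makes thymidylate, was 1.05 above Mock in EBF1ΔC and 0.85 in EBF1wt. None of the 15 chaperone and sensor genes, the 8 transporters or the 13 eIF2 genes passed between EBF1ΔC and EBF1wt by limma, where 3, 2 and 1 of them had an unadjusted p under 0.05. The share of all genes at that unadjusted threshold was not counted.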

How the data were processed

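The values used are the spot intensity that Agilent Feature Extraction processed (background-subtracted and detrended), not normalized between arrays, per the file headers. The headers name version 10.5.1.1 and the submitters' processing notes version 9.1. The authors also deposited log2 values with no stated normalization. Their columns, with medians of 6.74 in every array, followed quantile-normalized log2 raw spot intensity plus 50 (Pearson r of 0.999 or more across probes) and served as an alternative. Their direction is that of the intensity.

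The log2 of the 75th percentile of an array was subtracted from each log2 intensity. Control spots and outliers were left out, and repeated spots averaged. The 22356 probes kept, of 41174, were well above background on every array of 1 or more groups, and the probe with the highest mean stood for its gene. All 9 arrays entered 1 fit (limma version 3.58.1 in R 4.3.3) with a mean per group, 6 residual degrees of freedom, two-sided moderated tests and Benjamini-Hochberg adjustment over 12054 genes. The procedure was run on simulated independent values, with differences of 2-fold or more added to EBF1ΔC and no effect of slide or scan day. That run does not cover the smaller differences between EBF1ΔC and EBF1wt described here. Genes that 1 group did not measure above background get a lower bound for their fold, from the lowest signal well above background on each array.

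Any member could be named. Values on every array are given for Atf4, Asns, Ddit3, Trib3 and Chac1 and for the members of each class called in any comparison (or the 3 largest that passed), and up to 4 called genes of each list are named. Members, lists and the tests were chosen with earlier results of these data known. Positions of probes come from the files (mm9), and promoters are RefSeq's for GRCm38.p6. Replicate numbers were not taken to pair the samples: correlations between same-numbered arrays ran from -0.178 to 0.122.

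Alternatives were median scaling, quantile normalization with and without normexp (offset 50), the authors' values, other filters and probe rules, slide or replicate blocks, a fit of only the 2 groups compared, trended and robust moderation, the adjusted p alone, and leaving out each array.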

Additional observations from a re-analysis of the deposited data

How the results depend on the processing

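The number of the 46 genes called higher than Mock depended on the scaling, because many lay near 2-fold. The main counts of 7 in EBF1ΔC and 10 in EBF1wt became 26 and 36 with median scaling, 2 and 3 with normexp and quantile normalization, 4 and 5 with quantile normalization alone, and 3 and 3 with the authors' values. Without the 2-fold limit 31 and 38 were higher and 1 and 1 lower, and 2 were lower in EBF1ΔC than in EBF1wt. Median scaling moved the median of all genes by 0.55 in EBF1ΔC against Mock, by 0.70 in EBF1wt against Mock and by -0.16 in EBF1ΔC against EBF1wt. Genes called against Mock in either direction, of 12054, rose with it from 2186 to 3934 in EBF1ΔC and from 2346 to 5390 in EBF1wt. The members' median minus that of all genes, 0.40 in EBF1ΔC and 0.49 in EBF1wt, cannot change with the scaling constant. It was 0.28 and 0.50 with quantile normalization, 0.32 and 0.40 with normexp, and 0.34 and 0.41 with the authors' values. By the adjusted p alone, members higher and lower were 44 and 0 in EBF1ΔC and 45 and 0 in EBF1wt with median scaling, and 26 and 3, and 37 and 2, with normexp. The lists of other genes were put through the scalings after the data had been seen. Leaving out each array gave 6 to 8 in EBF1ΔC, 7 to 12 in EBF1wt and 0 lower than Mock, and 0 called between EBF1ΔC and EBF1wt. Trib3 and Psph were called against Mock in both groups under each of the 22 settings. With the replicate block, the counts were 7 and 10 against Mock and 0 between EBF1ΔC and EBF1wt, where Farsb and Nars2 no longer passed. With slide as a fixed block only EBF1ΔC against EBF1wt could be fitted, and 0 were called. By the adjusted p alone, 2 passed lower in EBF1ΔC than in EBF1wt in the main fit and 0 with the slide block. The count was 8 with trended and robust moderation, 1 in a fit of only the 2 groups and 0 to 3 when an array was left out. With the mean of the probes, 2 passed lower and 1 (Aars) higher. Among genes that passed before or after the change, signs turned, against Mock, for Aars (-0.0754 in EBF1ΔC, -0.59 in EBF1wt), Dars (-0.63, -0.36), Iars (-0.37, -0.12), Yars2 (-0.65, -0.23) and Cars2 (-0.40 in EBF1wt) with the mean of the probes. They also turned for Cars2 (0.44 in EBF1ΔC), Nars2 (0.50 in EBF1ΔC) and Vars2 (0.26 in EBF1wt) with median scaling. Qars turned to -0.37 in EBF1ΔC and -0.29 in EBF1wt with normexp and quantile normalization, and to -0.35 and -0.28 with the authors' values. In EBF1ΔC the small differences of Cars, Hars and Pars2 from Mock did not pass under several settings. Over all 46 genes, whether or not they passed, signs turned in EBF1ΔC and EBF1wt for 3 and 1 genes with median scaling and 5 and 6 with normexp. They turned for 5 and 5 with quantile normalization, 5 and 5 with the authors' values and 5 and 5 with the mean of the probes. The cause of the turns was not tested. Dim probes limit what can be said of Aars and Iars, whose clone probes were near background on some arrays, and of Dars, of which 1 mRNA probe was.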
